A study of Mus musculus with 32 samples.

Results

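The Bcl2 family decides whether the outer mitochondrial membrane stays closed or is opened during apoptosis. Here it was followed through 10 genes, Bax, Bak1, Bcl2, Bcl2l1, Bcl2l11, Bid, Bad, Mcl1, Bbc3 and Bnip3, in rd1 and wild type (wt) mouse retina. Every probe set of the array that the annotation joins to 1 of these symbols was taken, which gave 24 of the 22626 probe sets tested and 9 of the 10 genes. The annotation used here joins no probe set to Bax, so Bax was not analysed here. No probe set joined to several symbols held a member. Mcl1 had 6 probe sets, Bcl2l11 5, Bcl2l1 4, Bak1, Bid and Bad 2 each, and Bcl2, Bbc3 and Bnip3 1 each. Probe sets of 1 gene share their target and are not independent of each other.

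Retinas of rd1 and wt pups were taken at postnatal day (P) 2, 4, 6 and 8, before the photoreceptors of the rd1 retina die. The rd1 mice were homozygous for the rd1 mutation, which lies in the rod phosphodiesterase gene Pde6b, together with the linked light ear (le) mutation, and wt mice carried the wild type allele, all on a C57BL/6 background. Each sample pooled 8 to 14 retinas and was hybridised to its own MOE430A array, so that the 8 groups of 4 arrays made 32 in all. Levels are on the log2 scale, where a difference of 1 is a doubling. The sources used here do not state whether samples of 1 group were separate litters. The p-values therefore cover the spread among these samples, part of which may be technical.

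As background, Bcl2, Bcl2l1 (Bcl-x) and Mcl1 hold the membrane closed, Bak1 and Bax form the pores that release cytochrome c, and the BH3-only proteins Bcl2l11 (Bim), Bid, Bad and Bbc3 (Puma) carry death signals to them. Bnip3 is a more distant relative on the mitochondrial surface that is best known for its part in mitophagy and its induction by low oxygen. In the first postnatal weeks of the mouse retina the last progenitors leave the cell cycle, rods and bipolar cells are born and surplus neurons die by a pathway that runs through these proteins. The rods of the rd1 retina die in the weeks that follow.

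The arrays had medians of 6.54 to 6.76, and no 2 arrays were identical. Background was read from 27 control probe sets for Bacillus transcripts, which lay between 1.75 and 4.89 over the 32 arrays (the sources used here do not state whether such transcripts had been spiked in). From P4 to P8 the highest rd1 array of each age had less Pde6b than the lowest wt array. Among the 8 P2 arrays 4 were at odds with their labels, since Pde6b was high on rd1 replicates 2 and 3 but low on wt replicates 1 and 2. Samples of that age are therefore called by their labels. Those labels underlie rd1 minus wt at P2, as well as rd1 minus wt averaged over the 4 ages or tested for change with age. They also underlie P4 minus P2 and P8 minus P2 within 1 genotype. A fit without rd1 P2 replicates 1 and 4 keeps as rd1 at P2 only the 2 arrays at odds with their label. A call lost in that fit thus depends on the arrays left out, which does not show that those arrays are at fault. Comparisons of ages over both genotypes use all 8 arrays of an age, and their differences do not depend on the labels. Their standard errors and p-values do, since the spread is taken around the mean of each labelled group.

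Of the 24 probe sets, 17 had a mean above the median of all probe sets (6.68). The probe sets Bcl2l1 1426050_at and Bid 1448560_at lay in the background range on all 32 arrays, Bak1 1425716_s_at on 31 and Bcl2l11 1426334_a_at on 25. Levels on these 4 are near the limit of what the array can read. The remaining members ranged widely in mean signal, with the highest means on Bnip3 (11.12) and Mcl1 1448503_at (10.90) and the lowest on Bcl2 (5.85). Signals of different probe sets are not comparable as amounts of RNA.

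Promoters are printed for Bcl2l11, which fell with age on every probe set, and for Bnip3, whose level differed between ages on its only probe set. They are the 250 bases before and 50 after a RefSeq start on the mouse build GRCm38.p6. The Bcl2l11 gene lies at chr2:128126038-128162547 and has starts at 2 sites in the table, and the Bnip3 gene lies at chr7:138890836-138909506. Capitals mark, on either strand, GTAAACA (a core that FoxO factors bind), ACGTG (the core of a hypoxia response element) and CCAAT (the CCAAT box).
Bcl2l11, start 1, chr2:128125788-128126087, plus strand: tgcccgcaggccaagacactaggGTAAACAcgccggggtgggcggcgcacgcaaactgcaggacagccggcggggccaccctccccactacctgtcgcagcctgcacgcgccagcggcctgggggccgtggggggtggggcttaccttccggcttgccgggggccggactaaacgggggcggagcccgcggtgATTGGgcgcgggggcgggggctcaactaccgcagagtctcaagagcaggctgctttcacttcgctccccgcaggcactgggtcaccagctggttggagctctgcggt
Bcl2l11, start 2, chr2:128127325-128127624, plus strand: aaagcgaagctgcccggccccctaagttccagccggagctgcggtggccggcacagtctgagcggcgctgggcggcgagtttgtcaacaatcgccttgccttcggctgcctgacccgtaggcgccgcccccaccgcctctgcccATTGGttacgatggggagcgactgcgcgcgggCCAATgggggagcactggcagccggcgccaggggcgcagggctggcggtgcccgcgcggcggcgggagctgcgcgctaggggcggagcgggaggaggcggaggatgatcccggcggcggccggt
Bnip3, chr7:138909457-138909756, minus strand: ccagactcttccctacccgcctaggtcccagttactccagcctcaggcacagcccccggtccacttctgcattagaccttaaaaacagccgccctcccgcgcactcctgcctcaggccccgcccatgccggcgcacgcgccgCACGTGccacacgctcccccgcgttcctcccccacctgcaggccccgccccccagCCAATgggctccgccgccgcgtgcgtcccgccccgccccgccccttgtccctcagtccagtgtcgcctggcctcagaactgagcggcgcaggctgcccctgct
GTAAACA stood at position -227 of the upstream Bcl2l11 start, and 3.65% of 32851 promoters of this length held it. ACGTG stood at position -107 of Bnip3 and on the other strand at -108, where the matches overlap in a palindrome, and 19.6% of promoters held it. CCAAT stood at -57 of the upstream and at -106 and -74 of the downstream Bcl2l11 start and at -53 of Bnip3, and 37.4% of promoters held it. Among the 16 promoters of the 10 genes, 2 held GTAAACA (Bcl2l11 and Bbc3), 3 held ACGTG (Bax, Bbc3 and Bnip3) and 5 held CCAAT. These are matches of letters and no measurement of binding.

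The largest called fall between P8 and P2 in the family was that of Bcl2l11, the BH3-only protein Bim, and it was seen in both genotypes. All 5 of its probe sets fell, by 1.01 to 1.31 on the log2 scale, and in each probe set none of the 8 arrays at P8 overlapped the 8 at P2. On the brightest probe set, 1456005_a_at, levels at P8 were 7.16, 7.10, 7.10 and 6.47 in rd1 and 7.03, 7.35, 6.74 and 6.87 in wt. At P2 the same probe set read 8.18, 8.08, 8.50 and 8.58 on arrays labelled rd1 and 8.28, 8.12, 8.20 and 8.32 on arrays labelled wt. Every P8 array was thus lower than every P2 array by a clear gap, in rd1 as in wt. The difference was -1.31 (standard error 0.13, 8 arrays per age, limma adjusted p = 6.68e-10), a fold of 2.47 lower at P8. The two-sided exact permutation test of 8 arrays against 8 gave 0.000155, the smallest p it can give.

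The second probe set, 1435448_at, fell by a similar amount. It read 7.04, 7.45, 6.78 and 6.66 in rd1 at P8 and 7.35, 7.31, 7.53 and 7.07 in wt at P8. At P2 it read 8.69, 8.06, 7.99 and 8.70 on rd1 arrays and 8.17, 8.16, 8.78 and 8.56 on wt arrays. At P2 the arrays labelled rd1 replicates 2 and 3 and wt replicates 1 and 2 were the 4 lowest, and these are the same arrays on which Pde6b went against the label. Pde6b was high on the rd1 arrays of these 4 (9.18 and 9.24) and low on the wt arrays (6.96 and 7.19). The split of this probe set thus followed neither the labels nor the Pde6b level. The difference over both genotypes was -1.24 (standard error 0.13, limma adjusted p = 2.82e-09).

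The other Bcl2l11 probe sets agreed in direction. 1456006_at fell by 1.01 (standard error 0.15), 1435449_at fell by 1.12 (standard error 0.20) and 1426334_a_at fell by 1.23 (standard error 0.16). The last of these, at 4.29 at P8 against 5.52 at P2, was within the background range at P8, so the size of its fall is not exact. Each of the 5 was called in rd1 alone and in wt alone, and each kept its call over both genotypes when any 1 array was left out.

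The step at which a fall was called was not the same on every probe set, a difference that was not itself tested. 1456005_a_at was higher at P4 than at P2, at 8.60 against 8.28 over both genotypes (limma adjusted p = 0.0459), a call kept in 19 of 32 fits that each left out 1 array and lost without rd1 P2 replicates 1 and 4 together (0.34, limma adjusted p = 0.0636). It then fell by 0.55 at P6 against P4 (standard error 0.13, limma adjusted p = 0.00212) and fell by 1.07 at P8 against P6 (standard error 0.13, limma adjusted p = 1.76e-07). 1435448_at stayed within 0.04 of its P2 mean at P4 and then fell at both later steps, by 0.68 at P6 and 0.51 at P8. 1426334_a_at was called lower at P4 than at P2 (limma adjusted p = 1.16e-04), but it lay in the background range on 7 of 8 arrays at P4 and on all 16 arrays of P6 and P8, so neither the size of that step nor any later one can be read. Where each probe set lies in the transcript was not analysed here, and whether they read different Bcl2l11 isoforms was not tested.

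**Figure D1:**
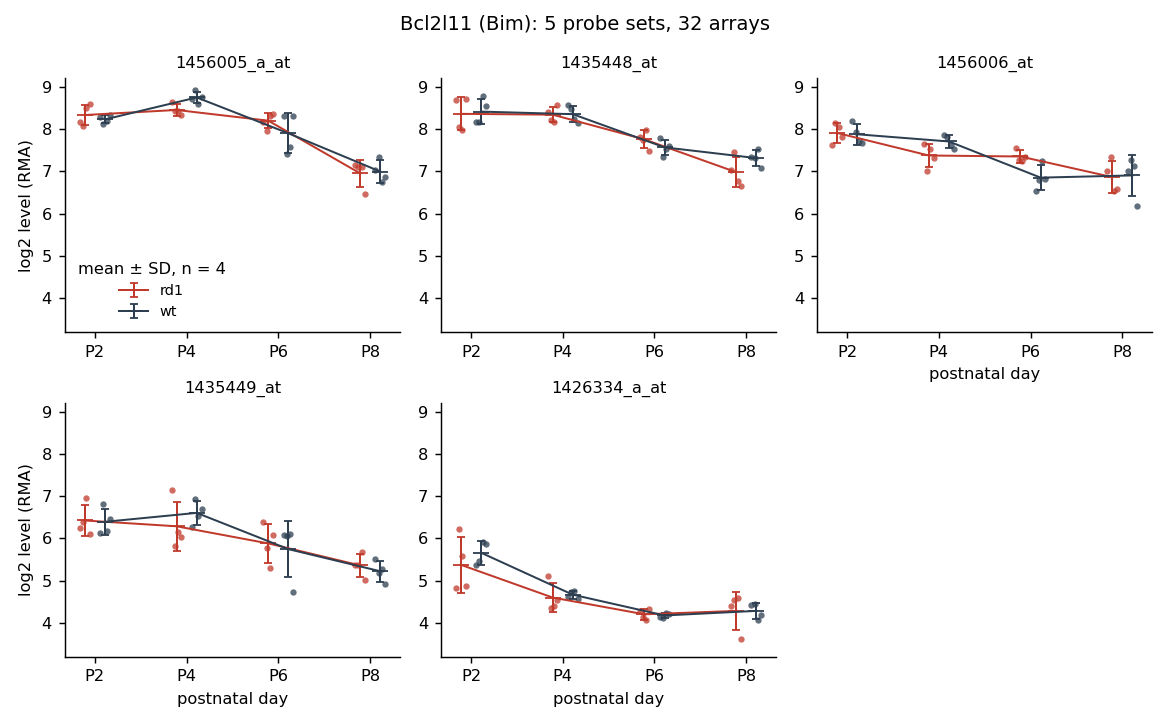
Log2 level (RMA, vertical axis) of the 5 Bcl2l11 probe sets at P2, P4, P6 and P8 (horizontal axis), with 1 point per array, rd1 in red to the left of wt in dark blue, and lines through group means with SD (n = 4 arrays). All 5 panels share 1 scale, and on each of them the P8 points lie below the P2 points in both genotypes, by 1.01 to 1.31 over both genotypes together.

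The other BH3-only members had no called difference between P8 and P2 over both genotypes. Bid, which caspase 8 cleaves to link death receptors to mitochondria, read 7.25 at P8 and 6.99 at P2 on 1417045_at over both genotypes, a difference of 0.26 that was not called (limma adjusted p = 0.139). Its other probe set, 1448560_at, lay in the background range throughout, although it was called higher at P8 than at P6 by 0.58. Bad, which survival signals hold inactive by phosphorylation, differed between P8 and P2 by -0.02 on 1416582_a_at and by 0.08 on 1416583_at, both without a call. 1416583_at was called higher at P4 than at P2 by 0.21 (limma adjusted p = 0.0288), which was kept in 27 of 32 fits that each left out 1 array. Without rd1 P2 replicates 1 and 4 together it was 0.11 and was lost (limma adjusted p = 0.238).

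Bbc3, the p53 target Puma, read 7.84, 7.72, 7.83 and 8.58 in rd1 at P8 and 7.77, 7.79, 7.94 and 7.45 in wt at P8. At P2 it read 7.85, 7.45, 7.66 and 8.17 on rd1 arrays and 7.64, 7.72, 8.33 and 7.99 on wt arrays. The ages overlapped fully, and the difference was 0.01 (95% interval -0.25 to 0.27). At P4 Bbc3 was lower than at P2 by 0.33 (limma adjusted p = 0.0387), a call kept in 23 of 32 fits that each left out 1 array. That call was also lost with array quality weights (-0.10, limma adjusted p = 0.39) and without rd1 P2 replicates 1 and 4 together (-0.22, limma adjusted p = 0.208).

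The pore former Bak1 dipped at P4 on 1418991_at, by 0.29 against P2 (standard error 0.10, limma adjusted p = 0.0183), and kept that call without any 1 array. It was higher by 0.26 at P8 than at P6 (limma adjusted p = 0.0407), a call kept in 24 of 32 such fits, and its P8 and P2 means were 6.89 and 6.90. Its second probe set, 1425716_s_at, lay in the background range and was not called in any step.

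Among the members that protect cells, Bcl2 (chr1:106538176-106714290) was lower from P4 on. It read 5.71, 6.19, 5.77 and 5.74 in rd1 at P4 and 5.74, 5.70, 5.73 and 5.76 in wt at P4. At P2 it read 6.29, 6.22, 6.08 and 6.45 on rd1 arrays and 6.31, 6.28, 7.12 and 5.94 on wt arrays. All but 1 of the P4 arrays lay below all 8 arrays of P2. The difference was -0.54 (standard error 0.14, limma adjusted p = 0.00486), and at P8 the level was still 0.56 below P2 (standard error 0.14, limma adjusted p = 0.0017). Both calls held when any 1 array was left out. By genotype, the P8 minus P2 difference was -0.31 in rd1, where the ages overlapped and it was not called (limma adjusted p = 0.268), and -0.81 in wt (limma adjusted p = 0.00198). The P4 minus P2 difference was likewise not called in rd1 at -0.40 (limma adjusted p = 0.165) and was called in wt at -0.68 (limma adjusted p = 0.0212). The limma F test of whether rd1 minus wt varied with age gave no call for Bcl2 (limma adjusted p = 0.957). That test and the differences within 1 genotype take the P2 arrays by their labels.

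Mcl1, whose short-lived protein and RNA make it a quick sensor of stress, gave different courses on different probe sets. The gene lies at chr3:95656944-95663179. On 1416881_at it read 8.34, 7.52, 8.17 and 8.03 in rd1 at P4 and 8.39, 8.13, 8.15 and 7.38 in wt at P4, against 9.46, 9.12, 9.52 and 9.15 in rd1 at P2 and 9.31, 9.12, 8.94 and 8.91 in wt at P2. No P4 array reached a P2 array. At P8 it read 8.49, 8.57, 8.46 and 8.70 in rd1 and 8.60, 8.56, 8.49 and 8.57 in wt, all above the P6 arrays, which were 8.23, 8.27, 7.04 and 5.91 in rd1 and 6.88, 7.85, 8.19 and 6.45 in wt. Arrays of both genotypes were thus high at P2, lower and widely scattered at P6 and close together at P8. The steps were -1.18 at P4 against P2 (standard error 0.25, limma adjusted p = 7.11e-04), -0.66 at P6 against P4, which was not called (limma adjusted p = 0.0619), and 1.20 at P8 against P6 (standard error 0.25, limma adjusted p = 4.77e-04). The difference of P8 and P2 was -0.64 (limma adjusted p = 0.0399), and this call was kept in 21 of 32 fits that each left out 1 array and lost without rd1 P2 replicates 1 and 4 together (limma adjusted p = 0.0812).

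The brightest Mcl1 probe set, 1448503_at, moved the same way with smaller steps. It was lower by 0.41 at P4 than at P2 (limma adjusted p = 6.61e-04) and higher by 0.28 at P8 than at P6 (limma adjusted p = 0.0175). The P8 arrays read 10.91, 10.84, 10.97 and 10.74 in rd1 and 11.01, 10.84, 10.77 and 11.02 in wt, against 11.36, 11.36, 11.41 and 11.20 in rd1 and 11.28, 11.21, 11.07 and 11.12 in wt at P2. The ages did not overlap, and the difference was -0.36 (standard error 0.09, limma adjusted p = 9.93e-04). The later step was lost without wt P6 replicate 4 (0.22, limma adjusted p = 0.056) and without rd1 P6 replicate 4 (0.23, limma adjusted p = 0.0511). With array quality weights it was 0.15 and was lost too (limma adjusted p = 0.0654).

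Of the remaining 4 Mcl1 probe sets, 2 were called in the opposite direction at both of these steps and 1 at the earlier step alone. 1456381_x_at was higher by 0.42 at P4 than at P2 (limma adjusted p = 0.00157) and lower by 0.61 at P8 than at P6 (limma adjusted p = 1.77e-05), and 1437527_x_at by 0.32 and 0.26 in the same directions. 1456243_x_at was higher by 0.22 at P4 than at P2 (limma adjusted p = 0.0343), and its difference of -0.13 at P8 against P6 was not called (limma adjusted p = 0.283). The 1437527_x_at step at P8 was kept in 23 and the 1456243_x_at step at P4 in 23 of 32 fits without 1 array. With array quality weights the 1437527_x_at step at P8 was -0.08 and was lost (limma adjusted p = 0.376). Between P8 and P2 only 1456381_x_at of these 4 was called, with -0.29 (limma adjusted p = 0.0154), and without rd1 P2 replicates 1 and 4 it gave -0.15 (limma adjusted p = 0.227). 1416880_at had no called step. Over the 32 arrays 1448503_at and 1416881_at correlated at 0.90 and 1437527_x_at and 1456381_x_at at 0.80, whereas 1437527_x_at and 1416881_at correlated at -0.61. The points share the arrays and the ages, and the suffix x marks probe sets with probes that may bind other transcripts, so no 1 direction is given for Mcl1. Which transcripts each probe set reads was not tested.

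**Figure D2:**
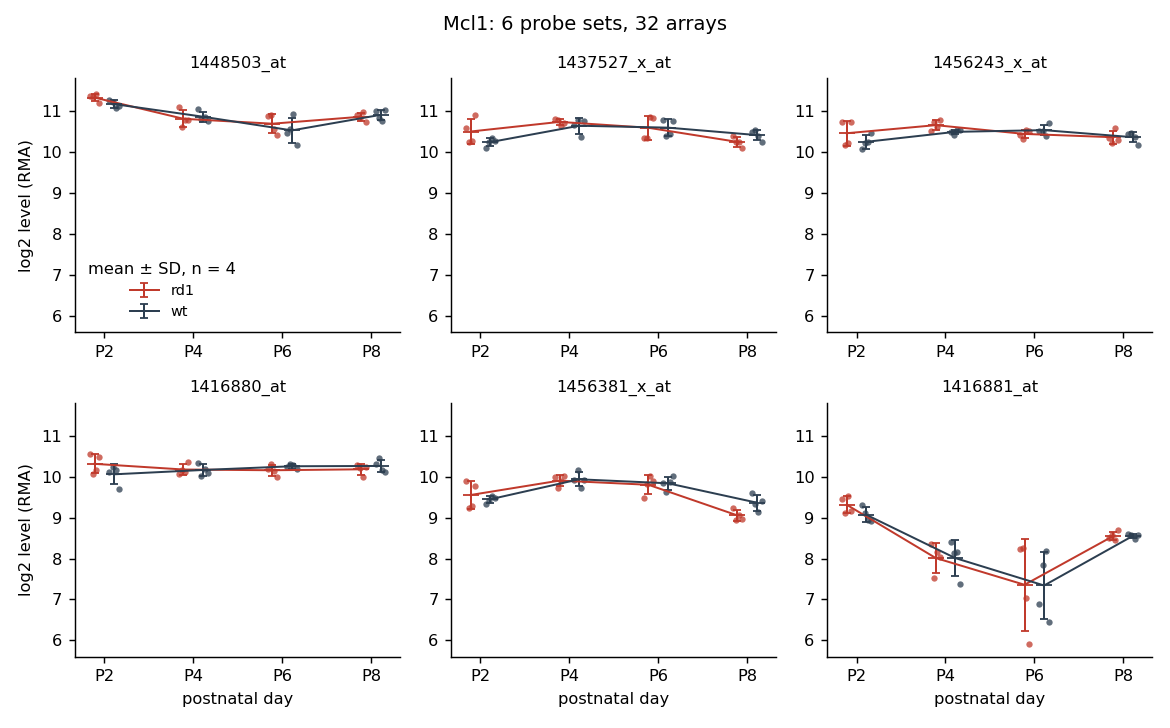
Log2 level (RMA, vertical axis, 1 scale for all panels) of the 6 Mcl1 probe sets by postnatal day, with 1 point per array, rd1 in red to the left of wt in dark blue, and group means with SD (n = 4 arrays). 1448503_at and 1416881_at dip at P4 and P6, with steps of -0.41 and -1.18 at P4, while 1456381_x_at is higher at P4 by 0.42 and lower at P8 than at P6 by 0.61.

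Bcl2l1, which encodes Bcl-x and is the main protective member in many neurons, had small steps on its brightest probe set. The gene lies at chr2:152758732-152833803. 1420888_at was higher by 0.26 at P4 than at P2 (standard error 0.09, limma adjusted p = 0.0209) and lower by 0.27 at P8 than at P6 (standard error 0.09, limma adjusted p = 0.0181), which left P8 and P2 at 9.07 and 8.91 with no call. The later step was lost without wt P6 replicate 4 (-0.23, limma adjusted p = 0.0512) and without wt P8 replicate 3 (-0.23, limma adjusted p = 0.0507).

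The probe sets 1420887_a_at and 1426191_a_at of Bcl2l1 were very low on just 2 arrays. 1420887_a_at read 6.02 and 5.68 on the arrays labelled rd1 P2 replicates 1 and 4, against 8.77 and 8.73 on rd1 P2 replicates 2 and 3 and 8.73, 8.76, 8.55 and 8.67 on the wt P2 arrays. On the 24 arrays of later ages it lay between 8.36 and 9.30. 1426191_a_at read 4.19 and 3.09 on those arrays, within the background range, against 6.79 and 6.68 on the other rd1 arrays and 6.67, 6.69, 6.13 and 6.39 on the wt arrays of P2. The brightest probe set did not share this, with 8.93 and 8.83 on the same arrays.

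The calls of both _a_at probe sets rest on those arrays, and Pde6b bore out the rd1 label of both. The low readings did not follow Pde6b alone, since the wt P2 arrays with low Pde6b were not low on these probe sets. A fit without both arrays keeps as rd1 at P2 only arrays at odds with their label. It shows that the calls need the low arrays and cannot show whether their readings are faulty. The difference of P8 and P2 on 1420887_a_at over both genotypes was 0.80 (standard error 0.30, limma adjusted p = 0.0268), and without both arrays it was 0.08 (limma adjusted p = 0.698). Leaving out either alone also ended this call, with 0.59 without replicate 1 (limma adjusted p = 0.0855) and 0.53 without replicate 4 (limma adjusted p = 0.0925). The rise of 1426191_a_at at P4 against P2, 1.00, became 0.23 without both arrays (limma adjusted p = 0.296) and 0.65 without replicate 4 alone (limma adjusted p = 0.054). Its difference of P8 and P2 in rd1, 1.26, turned to -0.29. The fourth probe set, 1426050_at, was called lower at P4 than at P2 by 0.08 within the background range.

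**Figure D3:**
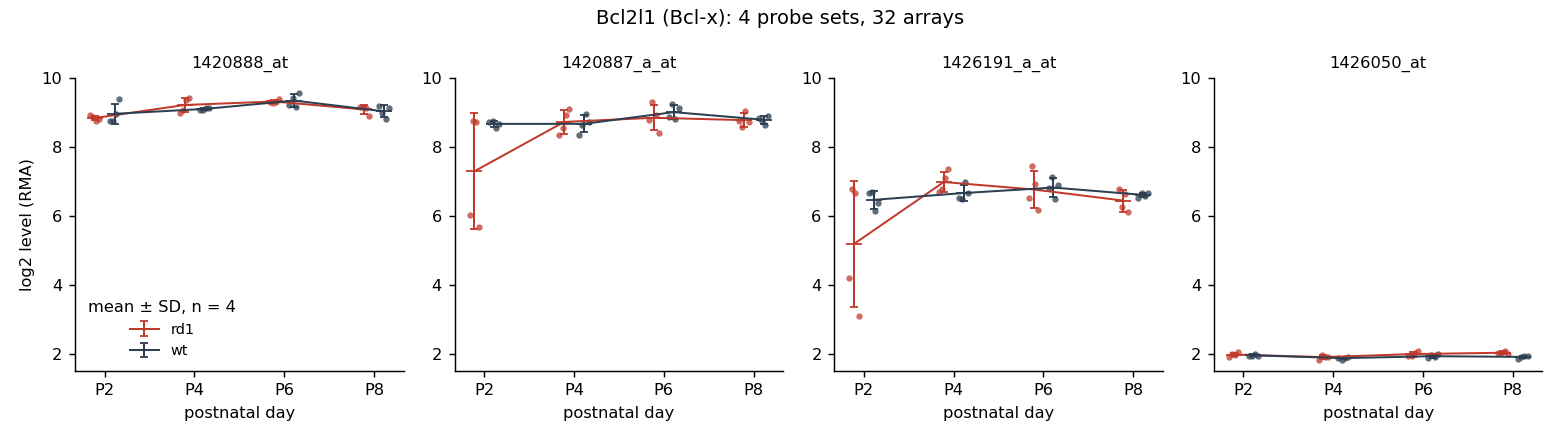
Log2 level (RMA, vertical axis, 1 scale for all panels) of the 4 Bcl2l1 probe sets by postnatal day, with 1 point per array, rd1 in red to the left of wt in dark blue, and group means with SD (n = 4 arrays). At P2 the rd1 points of 1420887_a_at split into 6.02 and 5.68 against 8.77 and 8.73, those of 1426191_a_at split in the same way, and 1426050_at stays in the background range near 2 throughout.

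Bnip3 was the member whose brightest probe set was called higher at P8 than at P2. It read 11.35, 11.12, 11.30 and 11.43 in rd1 at P4 and 11.53, 11.23, 11.38 and 11.13 in wt at P4. At P2 it read 11.09, 10.82, 10.88 and 10.54 on rd1 arrays and 11.00, 11.07, 10.29 and 11.08 on wt arrays. Each P4 array was above each P2 array, and the difference was 0.46 (standard error 0.10, limma adjusted p = 6.2e-04). At P8 it was 0.28 above P2 (standard error 0.10, limma adjusted p = 0.0202). That call was lost without wt P2 replicate 3 (0.19, limma adjusted p = 0.0673) and without rd1 P2 replicate 4 (0.23, limma adjusted p = 0.0593), the 2 lowest arrays, and after a further quantile normalization (0.22, limma adjusted p = 0.0651).

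**Figure D4:**
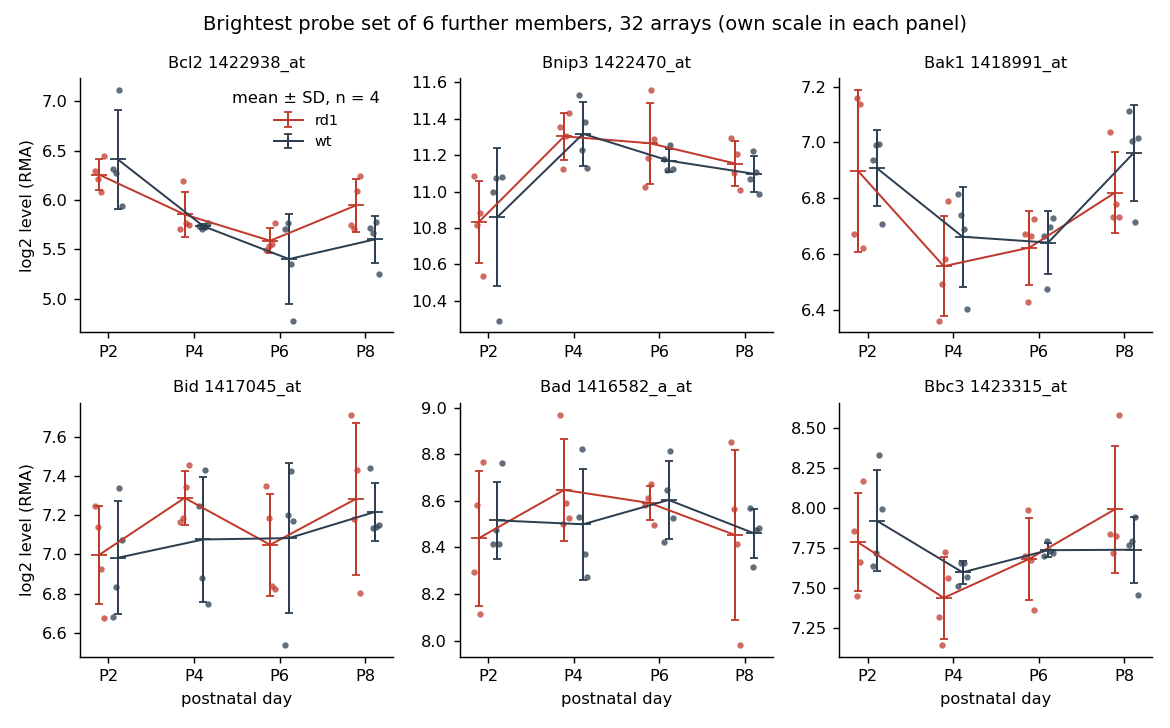
Log2 level (RMA, vertical axis, its own scale in each panel) of the brightest probe set of Bcl2, Bnip3, Bak1, Bid, Bad and Bbc3 by postnatal day, with 1 point per array, rd1 in red to the left of wt in dark blue, and group means with SD (n = 4 arrays). Bcl2 is lower at P4 than at P2 by 0.54, Bnip3 is higher by 0.46, and the rd1 and wt points overlap at every age.

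Counted together, 17 of the 24 probe sets changed with age over both genotypes by limma's F test, against 63.3% of all 22626. Between P8 and P2, 2 were called higher (all probe sets 21.6%) and 9 lower (23.5%). By gene, with the brightest probe set standing for each, Bnip3 was higher, Bcl2, Bcl2l11 and Mcl1 were lower and 5 were not called. For Mcl1 this is the reading of 1448503_at, and not every Mcl1 probe set was called. In rd1 alone, 3 probe sets were called higher (all probe sets 16.4%) and 7 lower (16.6%). In wt alone, none was called higher (16.9%) and 6 were called lower (18.7%), namely Bcl2 and the 5 of Bcl2l11. These counts within 1 genotype take the P2 arrays by labels that Pde6b contradicted on 4 of 8. The 3 called higher in rd1 alone were Bcl2l1 1420887_a_at and 1426191_a_at and Bid 1448560_at, and without rd1 P2 replicates 1 and 4 none of the 3 was called. The rd1 P2 arrays that remain in that fit are those at odds with their label.

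By step, P4 against P2 gave 8 higher (all probe sets 14.5%) and 7 lower (24.8%). P6 against P4 gave none higher (8.82%) and 4 lower (11.1%), which were all of Bcl2l11. Of these, 1456005_a_at and 1435448_at kept their calls in all 32 fits that each left out 1 array. The call of 1456006_at was kept in 24 and that of 1435449_at in 28. P8 against P6 gave 4 higher (15.4%) and 5 lower (13.6%). Over all probe sets 36.9% of the calls at P4 were of higher level, against 50.7% after median centring and 49.3% after a further quantile normalization. At P6 the share was 44.3%, against 76.6% after median centring and 51.2% after quantile normalization. Members called higher and lower at P4 were then 6 and 5 after median centring and 6 and 7 after quantile normalization.

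No member differed between rd1 and wt at any age by the limma test. The count was 0 of 24 for P2, where 0.0398% of all probe sets were called, and 0 as well for P4 (0.00442%), for P6 (0.208%) and for P8 (0.212%). Averaged over the 4 ages 0 were called (0.0442%), and the F test of whether the difference varied with age called 0 (0.0663%). Both of these take the P2 arrays by their labels. At an unadjusted p under 0.05 4 member probe sets passed on day 2 (7.96% of all probe sets), 0 on day 4 (2.99%), 1 on day 6 (8.1%) and 2 on day 8 (18.9%). With shares this small over all probe sets, a count of 0 among 24 is not a result about the members.

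The estimated differences of rd1 and wt were small at the later ages. At P4 they ran from -0.33 to 0.32 over the 24 probe sets, at P6 from -0.16 to 0.50 and at P8 from -0.33 to 0.34. The 95% intervals were wider, reaching -0.90 and 1.28 at P4, -1.02 and 0.92 at P6 and -1.13 and 0.85 at P8, so larger differences are not excluded on single probe sets. For Bnip3 at P8 the difference of rd1 and wt was 0.06 (95% interval -0.23 to 0.34), and for Mcl1 1448503_at -0.05 (95% interval -0.30 to 0.21).

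Bcl2l11 had the largest difference at P6, on 1456006_at. It read 7.56, 7.28, 7.23 and 7.33 in rd1 and 6.54, 6.79, 7.25 and 6.83 in wt, so 1 wt array lay within the rd1 range. The difference was 0.50 (standard error 0.21, limma adjusted p = 0.516). At P4 the brightest Bcl2l11 probe set was lower in rd1 by 0.30, with 8.64, 8.43, 8.42 and 8.33 in rd1 and 8.72, 8.92, 8.60 and 8.77 in wt, and was not called.

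At P8 the members with an unadjusted p under 0.05 were Bcl2l1 1426050_at and Mcl1 1456381_x_at. 1426050_at read 2.02, 2.02, 2.08 and 1.98 in rd1 and 1.85, 1.91, 1.94 and 1.92 in wt, a difference of 0.12 within the background range (limma adjusted p = 0.18). It was the only member whose genotypes did not overlap at P8, where 12.5% of all probe sets did not overlap, and no member was without overlap at P2 (2.76%), P4 (3.04%) or P6 (4.82%). Mcl1 1456381_x_at read 9.23, 8.94, 9.08 and 8.97 in rd1 and 9.61, 9.32, 9.13 and 9.40 in wt, a difference of -0.31 (limma adjusted p = 0.234).

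At P2 the largest difference was that of Bcl2l1 1420887_a_at, -1.38 on arrays labelled rd1 and wt (standard error 0.42, limma adjusted p = 0.226). Without rd1 P2 replicates 1 and 4 it was 0.0727. Those arrays were low on this probe set, and Pde6b bore out their label. Since they carry the difference, that fit cannot test it. Without rd1 P2 replicate 2 it was -1.87 and called (limma adjusted p = 0.0213), and without replicate 3 it was -1.86 and called (limma adjusted p = 0.0137). The exact permutation test of 4 arrays against 4 gave 0.4, where the smallest p possible is 0.0286. Bad 1416583_at was lower on arrays labelled rd1 by 0.32, with 7.70, 8.18, 8.23 and 7.90 in rd1 and 8.22, 8.27, 8.34 and 8.46 in wt (limma adjusted p = 0.323).

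**Figure D5:**
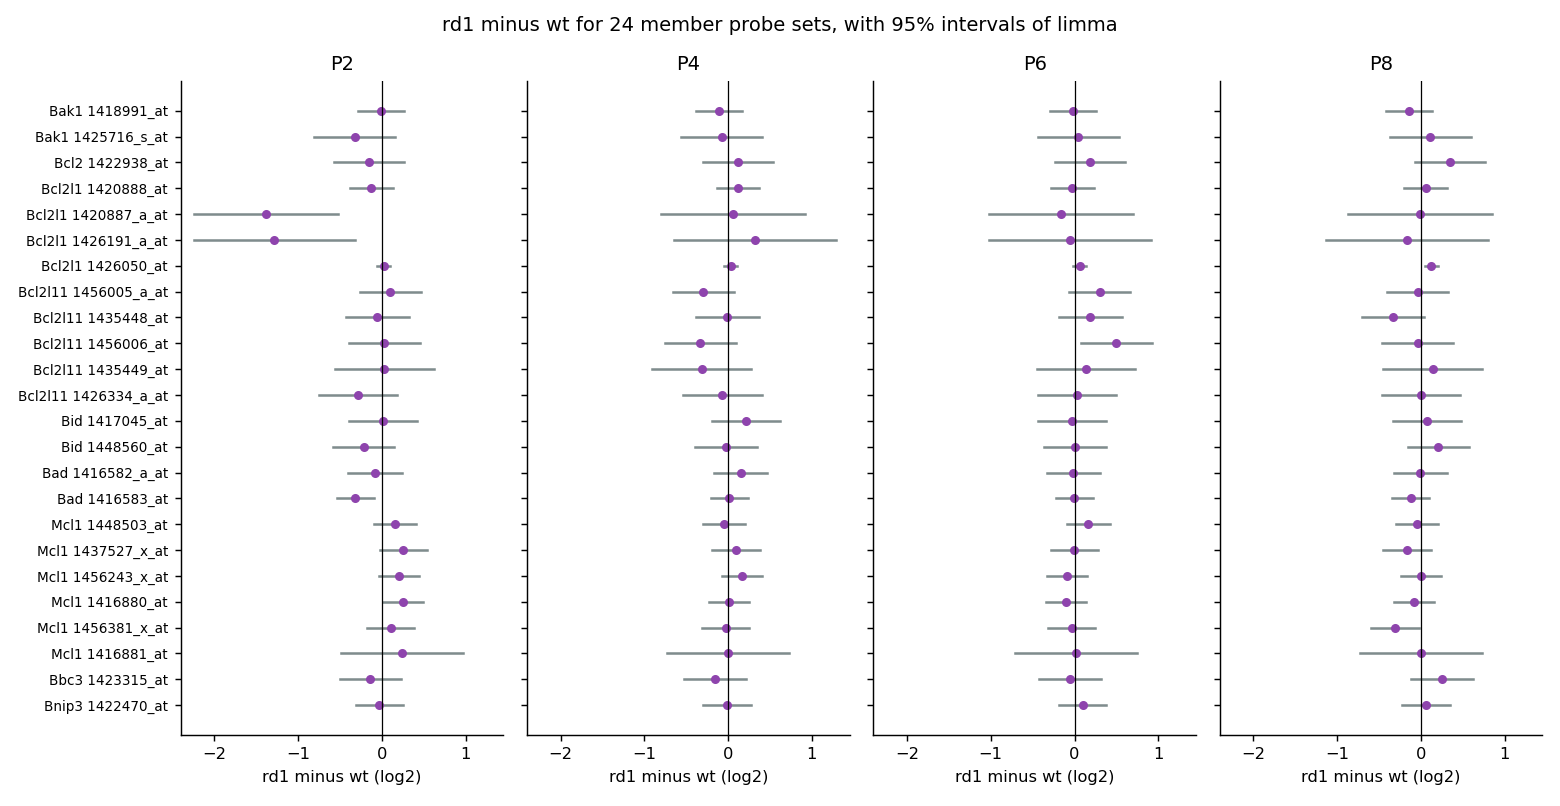
Difference of the group means, rd1 minus wt (log2, horizontal axis), for each of the 24 member probe sets (rows) at P2, P4, P6 and P8, with limma's 95% interval as a bar (n = 4 arrays per group). The points lie between -0.33 and 0.50 at P4, P6 and P8, none was called, and the 2 points at -1.38 and -1.28 at P2 are Bcl2l1 1420887_a_at and 1426191_a_at.

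Between P2 and P8 the fall of Bcl2l11 ran beside a change in markers of the cells of the retina. Markers of cycling progenitors, 6 of 6 measured, were lower at P8 than at P2, with a mean of 6.24 in rd1 and 5.88 in wt at P8 against 10.9 in rd1 and 10.8 in wt at P2. Rod markers, 6 of 6, and bipolar markers, 6 of 6, were higher at P8. So were markers of tissue beside the neural retina and of other cells, with 4 of 5 for lens (median difference 3.94), 4 of 5 for pigment epithelium (1.28), 4 of 6 for microglia (0.81) and 3 of 5 for Mueller glia (0.44). Of the other Mueller glia markers 1 was lower and 1 not called. Amacrine markers went both ways, with 2 of 5 higher and 3 lower (median -1.01). Ganglion markers did too, with 1 of 4 higher and 1 lower. Of 2 red blood cell markers, in the background range, 1 was higher. Among all genes 23.8% were higher and 23.4% lower. The mean of the 5 lens markers lay between 7.19 and 10.95 on rd1 arrays and between 5.49 and 8.76 on wt arrays at P8, against 4.14 to 5.72 on rd1 arrays and 3.92 to 5.79 on wt arrays at P2. At P6 the rd1 arrays had 2 of 6 progenitor markers higher than wt (all genes 0.178%). They had 1 of 6 rod markers and 3 of 6 bipolar markers lower (all genes 0.0807%). The largest rod difference at P6, -2.64, was that of Pde6b, the gene that carries the rd1 mutation. In whole retina fewer cells of a type and less RNA per cell cannot be told apart, and the part of cell mix in any member's course was not tested.

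Other genes with the course of the members with the widest ranges were found by correlation over the 32 arrays, among genes with a level above the median. Nearest to Bcl2l11 1456005_a_at were Meis2, a homeobox transcription factor, Ccdc136 and Map4k4, a kinase upstream of JNK, each at r = 0.93. Nearest to Bcl2 were Fdft1, the squalene synthase, at 0.81, and the tubulin Tubb5 and the folate enzyme Mthfd1, both at 0.80. Nearest to Mcl1 1448503_at were Ndc1, a nuclear pore protein, at 0.89, and the Ets factor Etv5 and the sterol synthesis enzyme Hmgcs1, both at 0.88. The arrays share age and genotype, so these values describe likeness of course only.

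The wider pathway, with 1 probe set per gene, is set against all 12393 genes, of which 23.8% were called higher and 23.4% lower at P8 than at P2. Of 12 further Bcl2 family genes 6 had a mean in the background range in each group, which leaves little room for a call. Of the 12, 1 was higher, Bcl2l2 (Bcl-w), a protective member, by 0.69 (limma adjusted p = 1.12e-04), and 1 was lower, Bcl2l13, by 0.44 (limma adjusted p = 2.99e-04). Bok, a pore former, differed by 0.22 without a call (limma adjusted p = 0.0839). Of 13 further genes of the mitochondrial pathway, among them effectors, caspase inhibitors and outer membrane channels, 5 were higher and 1 lower. That 1 was Apaf1, the scaffold of the apoptosome, which fell by 1.07 (limma adjusted p = 3.12e-09) to 7.74 at P8 against 8.81 at P2. Among the 5, Endog, a mitochondrial nuclease, was higher by 1.28 and Vdac1, the channel of the outer membrane, by 0.61.

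Of 17 regulators and partners 6 were higher and 6 lower. Fbxw7, part of the ligase that marks Mcl1 protein for breakdown, fell by 1.29 (limma adjusted p = 2.53e-12) to 10.00 at P8 against 11.29 at P2. Akt1, the kinase that phosphorylates Bad, fell by 0.50, and Ddit3 (Chop), a stress factor that induces Bcl2l11 in other cells, was higher by 0.58. Of 12 genes induced by low oxygen, the setting in which Bnip3 is known, 3 were higher and 6 lower, with Aldoa higher by 1.24, Ldha higher by 0.55 and Slc2a1 lower by 0.63. Of 14 p53 targets, the group that holds Bbc3, 4 were higher and 1 lower. Among the 4 were Ccng1, higher by 0.89, Sesn2 by 0.43 and Perp by 0.56. Perp lay in the background range, with group means of 3.81 to 4.69, as did the mean of 3 of the 14 in each group. None of the genes in these 5 lists was called in rd1 against wt at any age. Of all 12393 genes at most 0.178% were called higher (P6) and 0.145% lower (P8), so the lack of calls is not a result about these lists.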

How the data were processed

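Total RNA of pooled rd1 and wt mouse retina was hybridised to Affymetrix MOE430A arrays, 32 in all. The values deposited by the authors are on the log2 scale, after background correction, quantile normalization and summarization by Robust Multichip Average (RMA; the version used is not stated in the sources), which compresses differences near background. A second deposited table holds the authors' own signed fold changes and p-values and was not used. The 64 control probe sets were left out. Of the 22626 probe sets tested, 20380 had 1 gene symbol in the array annotation, 691 several and 1555 none.

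All 32 arrays entered 1 limma fit (3.58.1, R 4.3.3) that had a mean for each of the 8 groups, an intensity trend and 24 residual degrees of freedom. Benjamini-Hochberg adjustment ran over the 22626 probe sets separately for each comparison, and an adjusted p under 0.05 was a call. The model was tested on simulated data. Single values were also compared by two-sided exact permutation tests, over 70 assignments of 4 arrays against 4 or 12870 of 8 against 8. All member probe sets are reported. Where 1 value per gene is given, the probe set of highest mean stands for the gene. From each pathway list the genes of smallest p between P8 and P2 are named, and for the 3 members of widest range the 3 genes of highest correlation. Members, lists and rules were chosen with earlier results of these data known. The number of arrays limits the precision. Promoters are from RefSeq (GRCm38.p6), and all 10 genes had 1 or more. Alternatives were no intensity trend, robust moderation, separate fits, median centring, a second round of quantile normalization, dropping the 30% dimmest probe sets, weights for array quality, a block for replicate number, a required fold of 1.5, adjustment over the 4 ages together, leaving out P2, rd1 P2 replicates 1 and 4, or each array in turn.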

Additional observations from a re-analysis of the deposited data

Results flagged for a closer look

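In each of 192 groups of 4 arrays (24 probe sets, 8 groups) the highest and lowest arrays were compared with the rest by Dixon's ratio at its 95% critical value. Chance alone marks about 1 in 20 such groups. In 12 groups 1 array stood apart, and 2 of the 12 were arrays of P2. The ratio looks for 1 array apart from the rest and cannot mark a split of 2 against 2. The rd1 P2 arrays of Bcl2l1 1420887_a_at, 6.02 and 5.68 against 8.77 and 8.73, were therefore not marked.

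For Bcl2l11, 1456005_a_at was low at 6.47 on rd1 P8 replicate 4, and 1435449_at was low at 4.74 on wt P6 replicate 4. For Bcl2l1, 1420888_at was high at 9.41 on rd1 P6 replicate 4 and low at 8.91 on rd1 P8 replicate 4, and 1426050_at was high at 1.99 on wt P2 replicate 3, within the background range. Bcl2 was high at 6.19 on rd1 P4 replicate 2. Bnip3 was low at 10.29 on wt P2 replicate 3.

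Bak1 1418991_at was high at 7.04 on rd1 P8 replicate 1, and 1425716_s_at was low at 3.65 on wt P8 replicate 1. Bid 1417045_at was high at 7.44 on wt P8 replicate 1. Bad 1416583_at was high at 8.58 on rd1 P4 replicate 1, and Bbc3 was high at 8.58 on rd1 P8 replicate 4.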

How the results depend on the processing

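Of 2494 refits of 59 named values, 2320 kept direction and side of the threshold, 169 lost a call, 3 gained one and 2 turned direction. The 2 turned without rd1 P2 replicates 1 and 4, Bcl2l1 1420887_a_at in rd1 minus wt at P2 (0.0727) and 1426191_a_at in P8 minus P2 in rd1 (-0.29), and P8 minus P2 in rd1 then had 6 members called (27.6% of all probe sets), against 10 (33%). The 5 Bcl2l11 falls between P8 and P2 kept their calls in all 42 alternatives. Array quality weights gave 2 members called in rd1 minus wt at P8 (15.5% of all probe sets, against 0.212%), 12 in P8 minus P2 in wt (45.9%, against 35.6%) and 10 in P6 minus P4 (36.6%, against 19.9%). For P6 minus P4 the replicate number as a block gave 8 (28.1%) and median centring 7 (39%), against 4. The numbers mark no known pairing (16 pairs of same-numbered arrays, correlation -0.425 to 0.607, 7 over 0.1, and 6 arrays best with their own number). A required fold of 1.5 left 7 in P8 minus P2 (23.4% of all probe sets), 3 in P4 minus P2 (9.52%), 2 in P6 minus P4 (6.69%), 3 in P8 minus P6 (12%) and 10 with any change (29.2%). Without 1 array, rd1 minus wt at P2 had 0 to 2 (2 without rd1 P2 replicate 2) and P6 minus P4 had 2 to 8 (2 without wt P4 replicate 2, 8 without rd1 P4 replicate 2). Median centring ended the P4 calls of Bbc3, Bcl2l1 1426050_at, Mcl1 1456243_x_at and Bcl2l11 1456005_a_at, the P8 minus P6 call of Bak1 and the P8 minus P2 call of Mcl1 1456381_x_at. A further quantile normalization ended the P4 calls of Bcl2l1 1426050_at, Mcl1 1456243_x_at and Bcl2l11 1456005_a_at, the P6 minus P4 call of Bcl2l11 1456006_at, the P8 minus P6 call of Bak1, the P8 minus P2 call of Bnip3 and that of Bid 1448560_at in rd1. Separate fits of the ages compared ended 11 calls, among them Bnip3 and Bcl2l1 1420887_a_at in P8 minus P2. The causes were not tested. Values near background, on 4 probe sets, limit what can be read.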
